A study of Mus musculus with 8 samples.

Results

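The genes of respiratory complexes II to V were taken as all non-control probes of the array whose gene name in the scanner files starts with Sdh followed by a, b, c or d, with Uqcr, with Cox4 to Cox8 or with Atp5, together with Cyc1 and Cycs. The rule used names and no measured value, and it found 50 genes read by 80 probes, of 30139 gene or transcript names on the array. By complex these were 4 genes of complex II, 9 of complex III, the cytochrome c gene Cycs, 18 of complex IV and 18 of complex V. Of the last, 3 matched by name only: Atp5s and Atp5sl, which RefSeq now lists as Dmac2l and Dmac2, and the pseudogene Atp5c1-ps. Cox7a2l is a supercomplex assembly protein related to subunit 7a.

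The samples were left ventricles, with septum, free wall and apex, of 8 male mice of the inbred C57Bl/6j strain, none of which carried an altered gene by the labels. From 8 weeks of age the mice ate a low salt diet with 0.05% sodium (mice L1 to L4) or a normal salt diet with 0.4% sodium (mice N1 to N4) for 8 weeks, and all were killed at 16 weeks under pentobarbital. Total RNA was amplified, labelled with Cy3 (odd-numbered mice) or Cy5 (even-numbered mice) and hybridised to 2-colour Agilent arrays. Each of the 4 arrays held 2 mice of the same diet, so a difference shared by both arrays of a diet cannot be told apart from the diet itself.

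Complex II (succinate dehydrogenase) passes electrons from succinate to ubiquinone, complex III passes them on to cytochrome c, complex IV (cytochrome c oxidase) hands them to oxygen, and complex V (ATP synthase) makes ATP from the proton gradient that complexes III and IV help to build. The heart draws most of its ATP from this chain, and cardiac mitochondria are dense with these proteins. Several complex IV subunits exist as a heart isoform (Cox6a2, Cox7a1, Cox8b in mice), found in heart and skeletal muscle, and a more widely expressed liver-type isoform (Cox6a1, Cox7a2, Cox8a). The mitochondrial genome encodes some of the subunits of complexes III, IV and V, and the name rule leaves these out.

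Values are normalised log2 intensities, which set a gene against itself between mice and not against another gene. A difference is low salt minus normal salt, fitted in limma with dye as a fixed term and array as a random block, and adjusted by Benjamini-Hochberg over all 18250 genes tested with a threshold of 0.05. A gene's values are those of its brightest probe free of outlier flags, where it had one. Of the 50 genes, 49 were tested. The testis isoform Cox8c was not well above background in any mouse, and the testis isoform Cox7b2 was so in 3 low salt and 2 normal salt mice. No member spot was saturated.

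Median spot intensities lay between 116 and 147 and local backgrounds between 15.5 and 33.5, and with 4 arrays in all the precision of each value is limited. All 8 ventricular myocyte markers fixed for the check, among them Myh6 and Tnnt2, were well above background in all mice. The labels number the samples within a diet, each is called a mouse here, and the p-values measure the spread between these samples and arrays. In whole tissue, fewer cells of a type and less RNA per cell cannot be told apart.

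The probes that the results below turn on are 60-base oligonucleotides of the array design, of which the first 30 bases are given. For the complex IV isoforms, whose sequences are shown because the heart and liver-type copies of a subunit are related proteins, the paired probes shared runs of at most 6 bases.
Cox6a2 (heart): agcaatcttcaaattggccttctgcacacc
Cox6a1 (liver-type): ggaccacgaaaaccctttggatgctaagct
Cox7a1 (heart): acaacgtcctgtacagactgaccatgacgc
Cox7a2 (liver-type): ctttggggatcaatatttattgatgtgtat
Cox8b (heart): ctataaaaagagctccgcagcatgaagttg
Cox8a (liver-type): tattggctctgcttggtggggtcccccttt
In the array design's mm9 coordinates the heart isoform probes lie on chromosome 7, that of Cox6a2 at chr7:135349160-135349219 on the minus strand, that of Cox8b at chr7:148084852-148084911 on the minus strand and that of Cox7a1 within chr7:30970337-30970948 on the plus strand, a span of 612 bases that is longer than the probe. The design gives no exon or untranslated region for a probe.

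In 4 genes, Uqcr10, Uqcrh, Uqcrb and Cox7a2l, 2 probes of the same gene shared over 40 bases in a row and gave differences of opposite sign. Capitals mark the part of the printed bases that lies in the longest run shared by both probes of the pair.
Uqcr10, A_55_P2166414: cagactcACTTCTGCTGTGTTTGAGTACAG
Uqcr10, A_55_P2157705: ACTTCTGCTGTGTTTGAGTACAGCTGTCAG
Uqcrh, A_55_P2052470: ctcttctgtgtaACTAGCAGTGACTTCATC
Uqcrh, A_55_P1965427: gtagcttctcttctgtgtgACTAGCAGTGA
Uqcrb, A_66_P132663: AGGAGAGAGAAGAGTGGGCAAAGAAGTGAT
Uqcrb, A_55_P1965402: tcgggaaagaaAGGAGAGAGAAGAGTGGGC
Cox7a2l, A_55_P2151071: CCTTTAATAATGCTGTGGCTTTACGTTATG
Cox7a2l, A_66_P129419: cagctgtgtcaggacttctCCTTTAATAAT
The shared run is 53 bases long in Uqcr10, 41 in Uqcrh, 49 in Uqcrb and 41 in Cox7a2l. The Uqcr10 pair lies at chr11:4601979-4602038 and chr11:4601972-4602031 on the minus strand, a shift of 7 bases, and the Cox7a2l pair at chr17:83901272-83901331 and chr17:83901291-83901350 on the minus strand. The Uqcrb pair lies at chr13:67001654-67001713 and chr13:67001665-67001724 on the minus strand. The first Uqcrh probe is placed on the plus strand of chromosome 2 (118834335 to 118834394) and the second on the minus strand of chromosome 4 (115739571 to 115739630). The design placed the probes of 5 members, Atp5j2, Atp5k, Atp5l, Uqcr11 and Uqcrh, on more than 1 chromosome or unplaced sequence, and which copy's transcript such a probe reads is uncertain.

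No gene of complexes II to V passed the threshold after the low salt diet, read from its main probe. For Uqcr10 the main probe was only slightly brighter than another probe of that gene, which was called at probe level. None of the 49 was called in limma, while 145 of all genes were, 138 higher and 7 lower, which is 0.795% of those tested. With the mouse number as a block the whole array gave 235 calls and the members again none. An unadjusted p under 0.05 was found for 5 members, 3 higher (Cox5a, Uqcrb, Atp5c1) and 2 lower (Cox7a2l, Atp5e), and the smallest adjusted p was 0.318, for Atp5e. Over all genes 2018 had such a p. The members' differences ranged from -0.62 for Uqcr10 to 0.33 for Cox5a, 22 above and 27 below 0, with a median of -0.03 against a median of 0.01 over all genes. The members' median was 0.09 with the scanner's own processed signal, where that of all genes was 0.04, and 0.03 with no normalization between arrays.

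In size 38 of the 49 differences were under 0.2, as were 12189 of those of all 18250 genes, and the 95% interval of 38 lay wholly within 0.585 of 0, the log2 of a 1.5-fold change. The standard errors ran from 0.09 to 0.30 with a median of 0.12, against 0.13 for all genes. None of the members differed 1.5-fold in the same direction in both dyes, where 360 genes were higher and 244 lower by that measure. Again by main probe, every low salt mouse lay above every normal salt mouse in 2 members, Uqcrb and Atp5c1, with 7.97% of all genes doing so. Every measured low salt mouse lay below every normal salt mouse in 3 members, Atp5d, Atp5e and Atp5o, with 4.94% of all genes doing so.

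**Figure D1:**
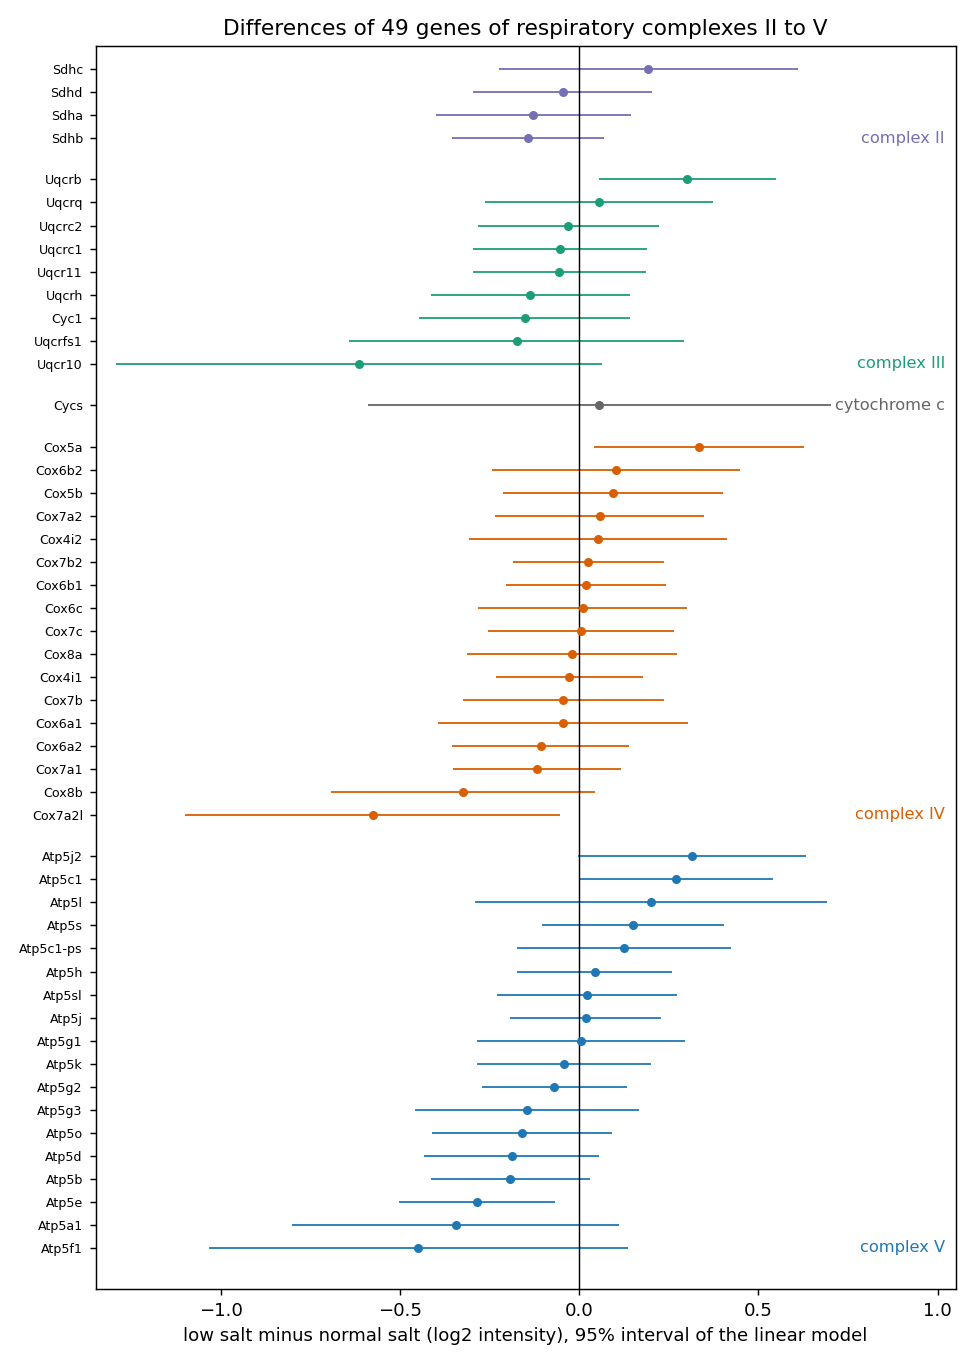
Difference of each of the 49 tested genes, low salt minus normal salt in log2 intensity (x axis), with its 95% interval from the linear model, grouped by complex and ordered by size (y axis). Most points lie within 0.2 of 0, and the widest intervals belong to Uqcr10, Cycs and Atp5f1.

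Complex II is the only complex of the chain encoded wholly in the nucleus, and its 4 genes stayed within 0.2 of 0. Sdha, the flavoprotein that oxidises succinate, had 14.59, 15.05, 14.72 and 14.84 in low salt mice L1 to L4, against 14.73, 15.10, 14.77 and 15.11 in normal salt mice N1 to N4, a difference of -0.13 ± 0.12 (SE). The groups overlapped, and in both the Cy5 mice were the higher ones. Sdhb, the iron-sulphur subunit, averaged 16.82 ± 0.11 in low salt mice and 16.96 ± 0.13 in normal salt mice (SD, n = 4 each), a difference of -0.14 ± 0.09 (SE). The second Sdhb probe gave 0.08, and in the scanner's processed signal the main probe gave 0.31. Sdhd, one of the membrane anchors, differed by -0.05 ± 0.11 (SE).

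Sdhc, the other membrane anchor, had 15.06, 15.23, 15.09 and 15.06 in low salt mice, against 15.24, 15.17, 14.70 and 14.56 in normal salt mice. Only N3 and N4, the 2 mice of 1 array, lay apart from the rest. The difference was 0.19 ± 0.18 (SE; limma adjusted p = 0.706) and that of the second Sdhc probe was 0.23. Both Sdhc probes sat where the arrays differed around them as well: the local median difference between the diets, taken over the probes nearest on the surface, was 0.17 and 0.14 there. With the local trend subtracted, the Sdhc difference was 0.02.

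Complex III had 2 genes with a positive and 7 with a negative difference, with a median of -0.06. The core proteins Uqcrc1 and Uqcrc2 differed by -0.05 and -0.03, and cytochrome c1 (Cyc1), which donates electrons to cytochrome c, by -0.15 ± 0.13 (SE). The small subunits Uqcrq and Uqcr11 differed by 0.05 ± 0.14 and -0.06 ± 0.11 (SE), and their second probes by -0.17 and -0.12. The Rieske iron-sulphur protein Uqcrfs1 had 15.51, 15.53, 16.14 and 16.06 in low salt mice, against 16.02, 16.20, 15.70 and 16.02 in normal salt mice. L1 and L2, which share an array, were the lowest of all, and the difference over all mice was -0.17 ± 0.20 (SE).

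Uqcrb, a small subunit next to the quinone site, had the highest difference of complex III. It read 16.59, 16.46, 16.41 and 16.37 in low salt mice, against 16.24, 16.26, 16.07 and 16.04 in normal salt mice. The groups did not overlap, and the difference was 0.30 ± 0.11 (SE; limma adjusted p = 0.361). At that probe the local median difference of neighbouring probes was 0.31, and with the local trend subtracted the Uqcrb difference was -0.01. The overlapping probe gave 15.51, 15.58 and 15.41 in L1, L3 and L4 (L2 was flagged and dropped), against 15.68, 15.61, 15.72 and 15.52 in normal salt mice, a difference of -0.16. The third Uqcrb probe differed by 0.03.

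Uqcr10, another small subunit, held the lowest and the highest difference of all member probes. The main probe, A_55_P2157705, read 15.98, 15.95, 14.70 and 15.20 in low salt mice, against 16.11, 16.21, 15.95 and 16.03 in normal salt mice. L3 and L4 of 1 array were low and the other 6 mice were close together, and the difference was -0.62 ± 0.30 (SE; limma adjusted p = 0.483). Without the array of L3 and L4 it was -0.11. The probe shifted by 7 bases, A_55_P2166414, read 16.31, 16.44, 16.38 and 16.55 in low salt mice, against 15.24, 15.24, 14.98 and 14.70 in normal salt mice. There the groups were more than 1 log2 unit apart, with a difference of 1.38 ± 0.17 (SE; limma adjusted p over probes = 0.0117). The low and normal salt means were 15.46 and 16.07 for the main probe and 16.42 and 15.04 for the shifted one. The choice of the brightest probe was thus close. The last Uqcr10 probe, A_55_P2136765, differed by -0.05 ± 0.14 (SE).

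Of the 79 member probes tested, 2 passed the threshold, both higher, while 189 of all 23236 probes did, which is 0.813%. The second was A_55_P2052470 of Uqcrh, the hinge protein that helps bind cytochrome c1. It read 16.82, 17.08, 16.62 and 17.00 in low salt mice, against 15.71, 15.89 and 16.00 in N1 to N3, with N4 flagged and dropped. The difference was 0.94 ± 0.14 (SE; limma adjusted p over probes = 0.0332), with all low salt mice above the 3 normal salt mice measured. The brighter Uqcrh probe, A_55_P1965427, averaged 17.33 ± 0.26 in low salt mice and 17.47 ± 0.31 in normal salt mice (SD, n = 4 each), a difference of -0.14 ± 0.12 (SE).

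Both called probes stood at the left edge of the arrays, that of Uqcr10 in row 231 and column 11 and that of Uqcrh in row 238 and column 6. Rows 140 to 270 of the first 15 columns, limits set after the values were seen, held 992 tested probes, 4.27% of all, and 158 of the 181 probes called higher. In that region 15.9% of probes were called higher, and outside it 0.103%. The region held 4 member probes, namely those of Cox5a, Uqcrh, Uqcr10 and Uqcrb, and these gave 4 of the 5 highest differences of member probes. Outside the region none of the 75 member probes was called. The local median difference was 0.19 at the Uqcr10 probe and 0.26 at the Uqcrh probe. With the local trend subtracted the Uqcr10 probe differed by 1.19 (limma adjusted p = 0.0635) and the Uqcrh probe by 0.63 (limma adjusted p = 0.16), and neither passed. The Uqcr10 call also ended without L2 (limma adjusted p = 0.0549) and without the array of L1 and L2 (limma adjusted p = 0.0738). The Uqcrh call ended with the mouse number as a block (limma adjusted p = 0.0641) and without any 1 mouse other than N4, at limma adjusted p values between 0.0593 and 0.118.

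**Figure D2:**
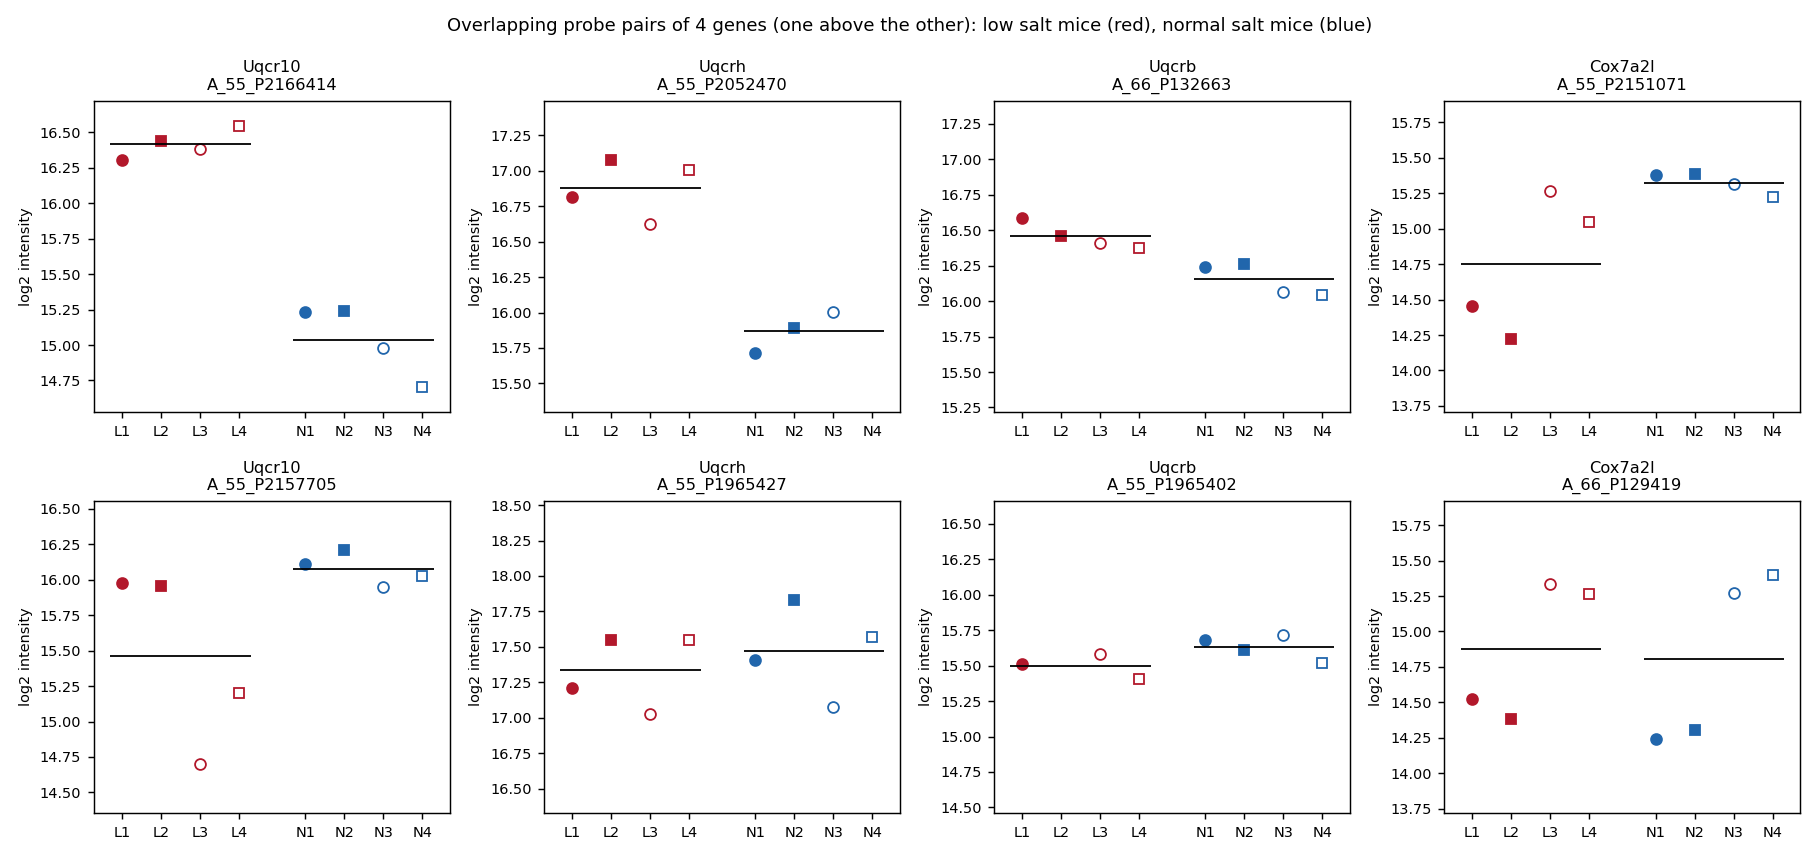
Log2 intensity (y axis) of overlapping probe pairs in each mouse (x axis), low salt mice L1 to L4 in red on the left and normal salt mice N1 to N4 in blue on the right. Each column holds 1 gene, circles are Cy3, squares are Cy5, filled symbols are the array of mice 1 and 2, open symbols that of mice 3 and 4, lines are group means, and every y axis spans the same width. The upper Uqcr10 probe lies between 16.31 and 16.55 in low salt mice and between 14.70 and 15.24 in normal salt mice, while the lower one is low in L3 and L4 alone.

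Cycs, which encodes the cytochrome c that carries electrons between complexes III and IV, had 14.51, 14.30, 14.96 and 14.58 in low salt mice, against 14.18, 13.92, 15.01 and 15.02 in normal salt mice. Within normal salt the arrays stood 0.97 apart, with N1 and N2 low, and the diets differed by 0.06 ± 0.28 (SE). The other Cycs probes gave -0.03 and -0.45, the last without N1, which was flagged. The one at -0.03 was near the low end of the scale, averaging 7.08 in low salt mice and 7.11 in normal salt mice.

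Complex IV had 17 tested genes, 9 with a positive and 8 with a negative difference and a median of 0.0049. Cox4i1, the common form of the regulatory subunit 4, had 17.31, 17.34, 17.40 and 17.37 in low salt mice, against 17.32, 17.37, 17.43 and 17.40 in normal salt mice, a difference of -0.03 ± 0.09 (SE). In the scanner's processed signal the Cox4i1 difference was 0.43, and with the local trend subtracted 0.12. The lung isoform Cox4i2 differed by 0.05 ± 0.16 (SE). Of the subunits with no heart isoform pair, Cox5b, Cox6b1, Cox6c, Cox7b and Cox7c stayed between -0.04 and 0.09 in their main probes, and the testis isoforms Cox6b2 and Cox7b2 differed by 0.10 and 0.02. The other Cox7c probes gave 0.20, in a dim probe averaging 8.35 in low salt mice and 8.15 in normal salt mice, and -0.14.

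Cox5a, a nuclear-encoded subunit of the oxidase, was the complex IV gene with the highest difference. It had 17.31, 17.67, 17.37 and 17.60 in low salt mice, against 17.21, 17.45, 16.89 and 17.06 in normal salt mice, with N3 and N4 the lowest. The groups overlapped in L1, L3 and N2, and the difference was 0.33 ± 0.13 (SE; limma adjusted p = 0.396). The local median difference at its probe was 0.23, and with the local trend subtracted the Cox5a difference was 0.10. Its probe spans 549 bases of chromosome 9 (57379593 to 57380141, plus strand), more than its own length.

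The 3 heart isoforms all had negative differences, which turned positive for 2 of them under other scalings. Cox6a2 had 17.90, 18.49, 17.86 and 18.31 in low salt mice, against 17.93, 18.56, 18.06 and 18.46 in normal salt mice, a difference of -0.11 ± 0.11 (SE; limma adjusted p = 0.724). The values split by dye, with Cy5 above Cy3 by 0.52, and the diets overlapped. With the scanner's processed signal Cox6a2 differed by 0.05 and with no normalization between arrays by 0.03. Cox7a1 had 17.90, 17.96, 17.74 and 17.91 in low salt mice, against 17.94, 18.14, 17.82 and 18.08 in normal salt mice, a difference of -0.12 ± 0.10 (SE; limma adjusted p = 0.683). Under the same alternatives the Cox7a1 differences were 0.18 and 0.11.

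Cox8b had 16.85, 17.25 and 17.36 in L1, L3 and L4, against 17.54, 17.54, 17.37 and 17.33 in normal salt mice. Its L2 spot was flagged and dropped, and L1, which was read from the same spot in the other dye, was the lowest value. The difference was -0.32 ± 0.16 (SE, 3 against 4 mice; limma adjusted p = 0.495), and -0.06 with the scanner's processed signal. L4 lay within the range of the normal salt mice and L3 just below it.

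Read from their main probes, the liver-type isoforms lay closer to 0. Cox6a1 differed by -0.05 ± 0.15, Cox7a2 by 0.06 ± 0.13 and Cox8a by -0.02 ± 0.13 (SE), and all groups overlapped. The other Cox8a probe read 15.11, 14.82 and 14.40 in L1, L2 and L4 (L3 was flagged and dropped), against 14.99, 15.08, 15.14 and 15.18 in normal salt mice. Its difference of -0.36 ± 0.19 (SE; limma adjusted p over probes = 0.536) was no closer to 0 than that of Cox8b. Taken per mouse, the mean of the heart isoforms minus that of their liver-type partners, centred on the mean of all mice, was -0.47, 0.22, -0.19 and 0.20 in low salt mice, against -0.07, 0.23, -0.0004 and 0.14 in normal salt mice. The L2 value rests on subunits 6a and 7a alone, since Cox8b was dropped there. The contrast differed by -0.14 between the diets, with an SD of 0.33 among low salt mice and 0.13 among normal salt mice. These SDs include the gap between the dyes, and the contrast itself was not tested. The Cy3 mice, L1, L3, N1 and N3, were the lower ones in both diets. In the Cy3 mice alone the contrast was -0.29 and in the Cy5 mice alone -0.0046, and without L1 it was 0.0049. By pair it was -0.06 for subunit 6a, -0.17 for subunit 7a and -0.26 for subunit 8, the last resting on the main Cox8a probe. In the scanner's processed signal the whole contrast was 0.04, and with no normalization between arrays 0.02. The remaining complex IV genes, without the heart isoforms, had a median of 0.01 over 14 genes, against -0.12 for the 3 heart isoforms.

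**Figure D3:**
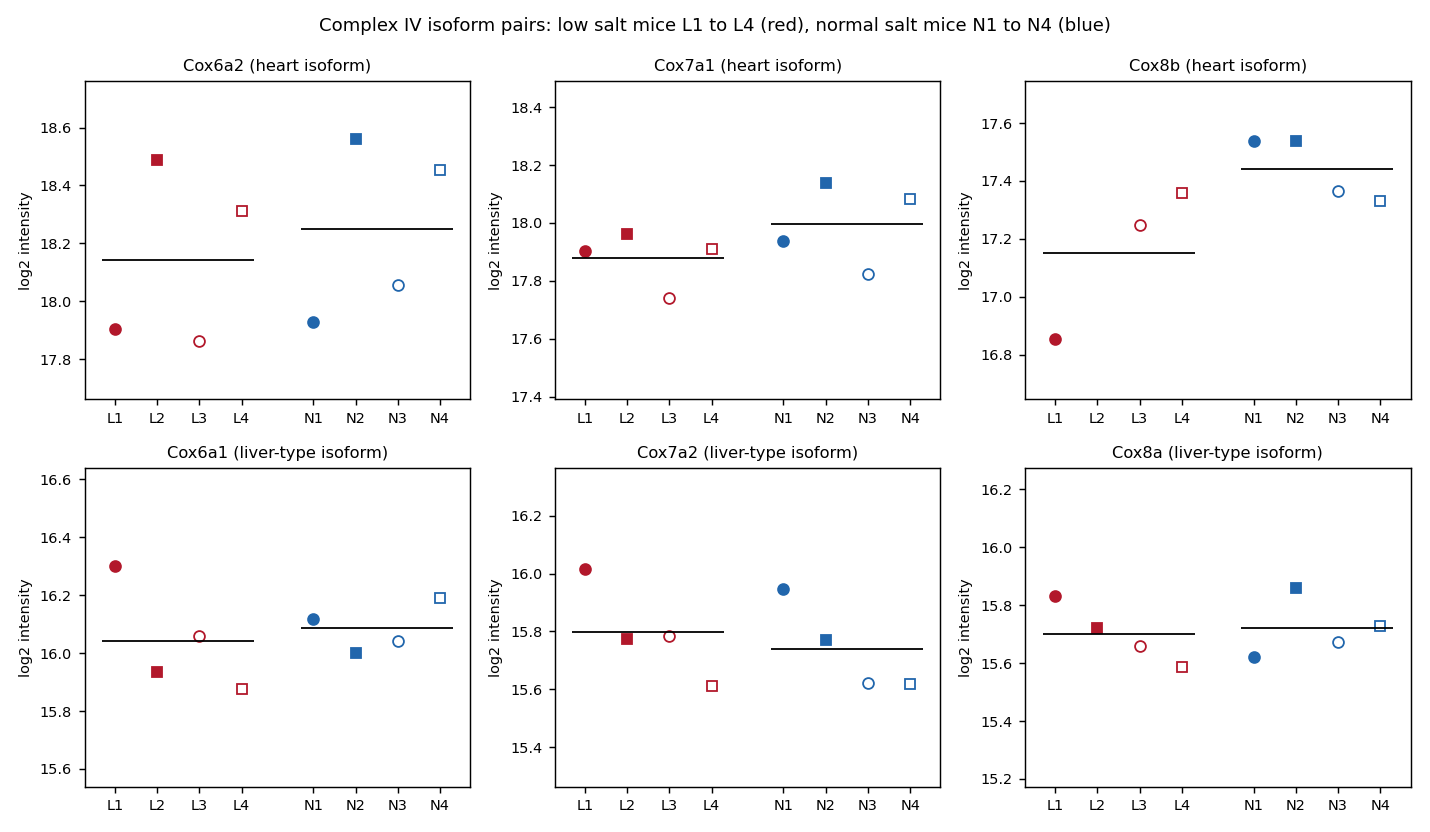
Log2 intensity (y axis) of the heart isoforms (upper row) and their liver-type partners (lower row) in each mouse (x axis), low salt mice in red on the left and normal salt mice in blue on the right. Circles are Cy3, squares are Cy5, filled symbols are the array of mice 1 and 2, open symbols that of mice 3 and 4, lines are group means, and every y axis spans the same width. The diets overlap in all 6 genes, Cox6a2 splits by dye, and Cox8b has no value for L2.

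Cox7a2l had the lowest difference of complex IV. Its main probe, A_55_P2151071, read 14.45, 14.22, 15.27 and 15.05 in low salt mice, against 15.38, 15.38, 15.32 and 15.22 in normal salt mice, a difference of -0.58 ± 0.23 (SE; limma adjusted p = 0.417). L1 and L2 of 1 array were low, and L3 lay among the normal salt mice. The overlapping probe, A_66_P129419, read 14.53, 14.38, 15.34 and 15.27 in low salt mice, against 14.24, 14.30, 15.27 and 15.40 in normal salt mice, a difference of 0.07. There the mice numbered 1 and 2 were low on both diets. The third Cox7a2l probe differed by -0.06. Without the array of L3 and L4, which leaves low salt with 1 array, Cox7a2l (-0.99; limma adjusted p = 0.0149) and Atp5a1 (-0.70; limma adjusted p = 0.0198) passed the threshold, and over all genes 1091 did.

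Complex V had 15 subunit genes tested, 6 with a positive and 9 with a negative difference and a median of -0.07. In the catalytic F1 head, Atp5b, the beta subunit that makes ATP, had 17.48, 18.08, 17.42 and 17.91 in low salt mice, against 17.57, 18.22, 17.66 and 18.21 in normal salt mice. Within each dye every low salt value was below both normal salt values, and the difference was -0.19 ± 0.10 (SE; limma adjusted p = 0.499), with Cy5 above Cy3 by 0.57. In the scanner's processed signal the Atp5b difference was 0.05, and with no normalization between arrays 0.02. Atp5a1, the alpha subunit, had 16.15, 16.30, 16.90 and 16.96 in low salt mice, against 16.77, 17.01, 16.90 and 17.00 in normal salt mice, a difference of -0.35 ± 0.20 (SE). Only L1 and L2 stood apart, and in the scanner's processed signal the Atp5a1 difference was 0.12.

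The central stalk genes went in different directions. Atp5c1, the gamma subunit that turns inside the head, had 15.83, 15.90, 15.58 and 15.56 in low salt mice, against 15.51, 15.49, 15.35 and 15.43 in normal salt mice, a difference of 0.27 ± 0.12 (SE; limma adjusted p = 0.452). The groups did not overlap. The second Atp5c1 probe gave 0.13, with overlap, and the Atp5c1-ps pseudogene probe, which shared at most 7 bases in a row with them, gave 0.12.

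Atp5e, the epsilon subunit, had 16.71, 16.73, 16.85 and 16.86 in low salt mice, against 17.03, 17.14, 17.07 and 17.06 in normal salt mice. All low salt mice were below all normal salt mice, by -0.29 ± 0.10 (SE; limma adjusted p = 0.318). Its only probe sat where the local median difference was -0.20. The Atp5e difference was -0.08 with the local trend subtracted and 0.10 with the scanner's processed signal. Atp5d, the delta subunit, averaged 15.64 ± 0.14 in low salt mice and 15.83 ± 0.013 in normal salt mice (SD, n = 4 each), a difference of -0.19 ± 0.11 (SE; limma adjusted p = 0.538), without overlap.

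In the peripheral stalk, Atp5f1 (subunit b, now Atp5pb) had the lowest complex V difference. It read 14.68, 14.92, 15.62 and 15.62 in low salt mice, against 15.38, 15.45, 15.87 and 15.93 in normal salt mice, a difference of -0.45 ± 0.26 (SE; limma adjusted p = 0.543). In both diets the mice numbered 1 and 2 were the lower ones, and the arrays stood 0.82 apart in low salt and 0.49 apart in normal salt. The second Atp5f1 probe, which shares 25 bases with the first, differed by -0.02. Atp5o (OSCP) differed by -0.16 with L3 flagged and dropped, and Atp5h (subunit d) by 0.04. The second probe of Atp5h gave -0.37, where L1 and L2 read 16.38 and 16.31 and the other 6 mice between 16.92 and 17.09. Atp5j (F6) differed by 0.02, and its second probe, which was near the low end of the scale at 6.73 to 7.20 in low salt mice and 7.36 to 7.52 in normal salt mice, by -0.39.

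In the membrane part, the c-ring genes Atp5g1 and Atp5g2 differed by 0.01 and -0.07, and Atp5g3 by -0.15 over 2 low salt and 4 normal salt mice, since L1 and L2 were flagged and dropped. Atp5j2 (subunit f) had 17.17, 17.14, 16.85 and 16.99 in low salt mice, against 16.57, 16.55, 16.84 and 16.94 in normal salt mice. N1 and N2 were low, the groups overlapped, and the difference was 0.31 ± 0.14 (SE; limma adjusted p = 0.456), while the second Atp5j2 probe gave -0.03. The design placed the main Atp5j2 probe on chromosome 9 and the second on chromosome 5. Atp5k (subunit e) differed by -0.04, and its other probes by -0.49 (with L4 flagged) and -0.43. Atp5l (subunit g) had 6 probes. Its main probe differed by 0.20 ± 0.21 (SE), with N3 and N4 at 16.45 and 16.44 and the other mice between 16.84 and 17.24, and its other probes ranged from -0.49 to 0.01. The main Atp5l probe was placed on chromosome X and the others on chromosome 9. The name-only matches Atp5s and Atp5sl differed by 0.15 and 0.02.

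In 40 of the 48 members that could be compared, the 2 arrays of one diet stood further apart than the diets did, which is 83.3%, and 72.6% of all genes did so. On the low salt side the widest gaps were those of Uqcr10, Cox7a2l, Atp5f1, Atp5a1 and Uqcrfs1, and on the normal salt side those of Cycs, Atp5l and Sdhc. Cy5 exceeded Cy3 by 0.3 or more in 6 members and Cy3 exceeded Cy5 by that much in none. The sign of the difference was the same in Cy3 mice and Cy5 mice in 35 of 49 members.

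**Figure D4:**
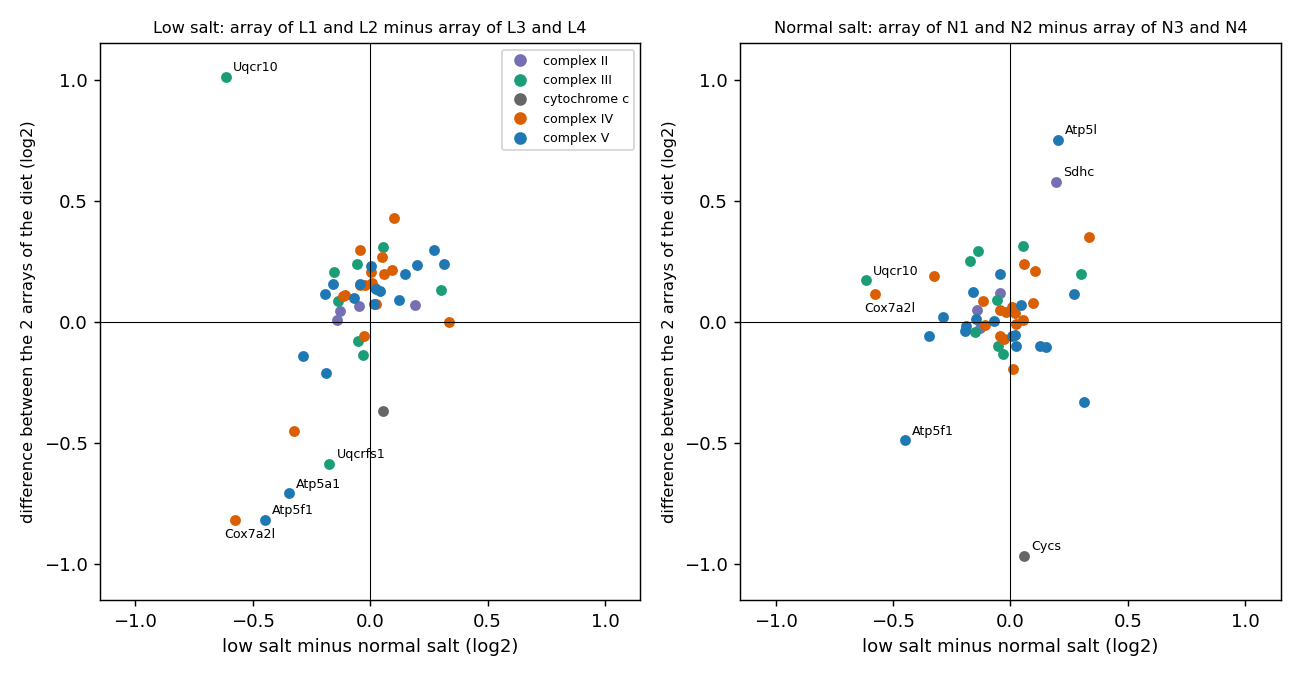
Difference between the 2 arrays of a diet (y axis, log2; low salt in the left panel and normal salt in the right panel) against the difference between the diets (x axis, low salt minus normal salt, log2) for each member, coloured by complex. Uqcr10 stands at 1.01 on the low salt side with L3 and L4 low, Cox7a2l and Atp5f1 at -0.82 with L1 and L2 low, and Cycs at -0.97 on the normal salt side with N1 and N2 low.

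Among the 20 members with several probes, 12 had probes of opposite sign, and in 10 of these the signs differed with a gap of over 0.3. From the highest to the lowest probe difference, the median range in these 20 members was 0.38. The median size of the main differences of all 49 members was 0.11. That is a value of single probes over more genes, so it is not a like measure to the range. Averaging all complete probes of a gene turned Uqcr10 to 0.24 and brought Cox7a2l to -0.19 and Uqcrb to 0.16, none of them called.

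Read mouse by mouse, the medians of each complex overlapped between the diets. The median deviation of complex III genes from each gene's own mean was -0.14, 0.15, -0.16 and 0.07 in low salt mice, against 0.02, 0.08, -0.03 and 0.14 in normal salt mice. That of complex V was -0.05, 0.15, -0.07 and 0.04 in low salt mice, against -0.06, 0.13, -0.05 and 0.10 in normal salt mice. In both complexes L2, L4, N2 and N4, the Cy5 mice, were higher than the Cy3 mouse of the same array. Complex IV stayed between -0.07 and 0.10 in low salt mice and between -0.02 and 0.03 in normal salt mice.

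**Figure D5:**
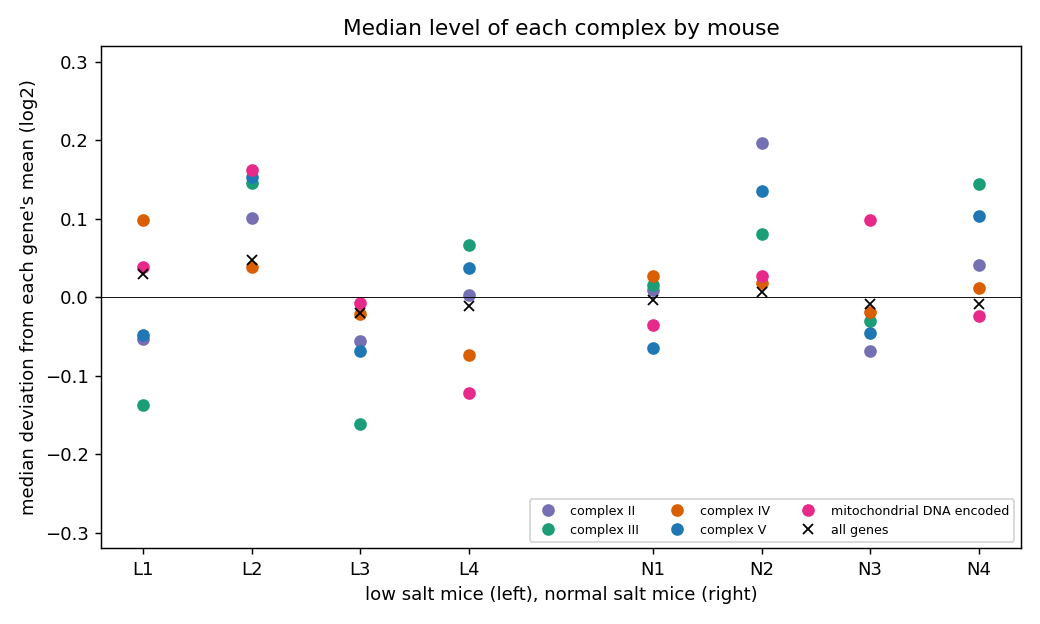
Median deviation from each gene's mean (y axis, log2) over the genes of each complex, the mitochondrial DNA encoded genes and all genes, for each mouse (x axis, low salt on the left, normal salt on the right). The diets overlap in every set, and complexes III and V are higher in the Cy5 mouse (even number) than in the Cy3 mouse of the same array.

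The rest of the chain gave no calls either. The 38 genes matched by name as subunits of complex I, which feeds the chain from NADH, included Ndufa4 and Ndufa4l2. These 2 are not complex I subunits (differences of -0.04 and -0.01), and Ndufa4 is also among the regulators and markers of mitochondrial content below. The 38 genes had a median of 0.0041 with 0 calls and 4 unadjusted p under 0.05 in limma, all higher. Such a p was found for 2018 of all 18250 genes. The lowest adjusted p of the 38 was 0.121 in limma, for Ndufc1. It read 16.23, 15.98, 16.01 and 16.00 in low salt mice, against 15.69, 15.57, 15.56 and 15.47 in normal salt mice. Its difference was 0.48 and the local median difference at its probe was 0.24. At the probes of the other genes with such a p, Ndufa10, Ndufb4 and Ndufb5, the local median difference was 0.30, 0.22 and -0.09. The 13 genes of the mitochondrial genome, which encode subunits of complexes I, III, IV and V, had a median of 0.02. They had 0 calls and no unadjusted p under 0.05 in limma. Among them COX1 ranged from 16.48 to 19.25 in low salt mice and from 15.15 to 18.95 in normal salt mice. Its difference of 0.59 ± 1.71 (SE) was too imprecise to read. The list of assembly factors of complexes II to V held 36 symbols, of which Atpif1 and Atp5if1 are the old and new names of the inhibitor of ATP synthase, which is no assembly factor. Of these symbols 32 were tested with 0 calls in limma and 3 unadjusted p under 0.05. Coa3, an early assembly factor of complex IV, came closest, at 14.08, 14.17, 14.31 and 14.26 in low salt mice, against 14.81, 14.80, 14.70 and 14.74 in normal salt mice, without overlap. The Coa3 difference was -0.56 ± 0.10 (SE; limma adjusted p = 0.0581), and the local median difference at its probe was -0.02. Cox20, another complex IV assembly factor, differed by -0.33 (adjusted p = 0.291), and Atpif1 by 0.57 (adjusted p = 0.352).

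Of 21 regulators and markers of mitochondrial content, 0 were called in limma, and none had an unadjusted p under 0.05. Perm1, a muscle regulator of mitochondrial genes, had the highest difference, at 13.99, 13.94, 14.11 and 13.80 in low salt mice, against 13.85, 13.84, 13.22 and 12.86 in normal salt mice, where N3 and N4 were low. Citrate synthase (Cs), often read as a measure of mitochondrial mass, differed by -0.18 ± 0.14 (SE), and the local median difference at its probe was -0.19.

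Markers of other cells of the wall were set beside these values. The mean level of the 7 endothelial markers lay between 10.67 and 10.98 in low salt mice and between 10.98 and 11.29 in normal salt mice, and that of the 4 macrophage markers between 9.86 and 10.28 in low salt mice and between 9.48 and 9.74 in normal salt mice. The 8 ventricular myocyte markers ranged from 16.78 to 17.41 in low salt mice and from 16.84 to 17.50 in normal salt mice. Their median difference was -0.12, with 6 lower and 2 higher. The 4 atrial markers ranged widely on both diets, from 11.12 to 13.22 in low salt mice and from 11.55 to 14.23 in normal salt mice. Their median difference was -1.52, with 3 lower and 1 higher. The 3 nerve markers lay between 7.502 and 7.694 in low salt mice and between 7.794 and 7.965 in normal salt mice. An unadjusted limma p under 0.05 was found for 3 endothelial, 2 ventricular myocyte and 2 nerve markers, all lower. It was also found for 1 macrophage marker, which was higher, and for none of the other lists, and 0 markers were called. By sign, 6 endothelial markers were lower and 1 higher, 3 macrophage markers higher and 1 lower, and 2 nerve markers lower and 1 higher. The 5 fibroblast markers ranged from 11.27 to 12.13 in low salt mice and from 11.81 to 12.03 in normal salt mice, the 3 smooth muscle markers from 11.23 to 11.72 in low salt mice and from 11.42 to 11.89 in normal salt mice, and the 2 blood markers tested from 14.03 to 14.42 in low salt mice and from 14.22 to 14.77 in normal salt mice. Of the skeletal muscle list, Ckm, which is not particular to skeletal muscle, lay between 15.19 and 15.74 in low salt mice and between 15.17 and 15.40 in normal salt mice. Tnnt3 was near the low end of the scale, between 6.91 and 7.18 in low salt mice and between 6.83 and 7.14 in normal salt mice. The brown fat marker Cidea lay between 12.80 and 13.54 in low salt mice and between 13.47 and 13.59 in normal salt mice. The white fat marker Adipoq lay near the low end of the scale, between 6.83 and 6.97 in low salt mice and between 6.63 and 7.04 in normal salt mice. The skeletal muscle markers Myh4, Myh1 and Actn3, the brown fat markers Ucp1 and Elovl3 and the white fat marker Lep were not tested, being well above background in fewer than 4 mice, and no probe was found for the blood marker Hbb-b1. The part of cell composition in the members' differences was not tested.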

How the data were processed

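Left ventricle RNA of 4 low salt and 4 normal salt mice was read on 4 arrays of 43020 non-control spots. The deposited scanner tables hold mean and background intensity per spot and channel, per the file headers, and the processed intensity of the scanner software (Agilent Feature Extraction, version 11.5.1.1). The tables of the 2 mice of an array are identical copies, and each mouse was read in its own dye. The table of the whole series was not used here, since its rows could not be matched to probes.

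Intensities were corrected with normexp (offset 50; flagged backgrounds replaced by the channel median), normalised by loess and Aquantile and turned into log2 values with limma 3.58.1 and statmod 1.5.0 (R 4.3.3). Flagged spots were dropped. Probes well above background in at least 4 mice were kept. A linear model held diet and dye, with array as a random block (correlation 0.56), and 2-sided tests. Local trends were running medians over 15 rows and 4 columns to each side. Deviations of mice with the same number correlated at 0.30, 0.14, 0.16 and 0.19, but numbers coincide with dyes, and with dye removed at 0.09, 0.02, 0.13 and -0.01. Symbols follow RefSeq (27508 of 39429 probes by accession), and coordinates are the array design's mm9.

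The members and lists were chosen with earlier results of these data known. Named genes were the isoforms, complex II, Cyc1 and Cycs, the 3 smallest p and the largest rise and fall of complexes III, IV and V, members whose probes disagreed in sign by over 0.3, and those that are not subunits; Atp5a1, Atp5b, Atp5d, Uqcrfs1 and others outside it were named to account for every member.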

Additional observations from a re-analysis of the deposited data

Results flagged for a closer look

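Of 95 groups of 4 mice examined, 4 held a mouse far from the other 3, and chance alone gives about 1 in 20. Uqcrc2 was 16.06 in L1, with the nearest low salt mouse at 16.30. Cyc1 was 16.87 in L2, with the nearest low salt mouse at 16.54. Cox6c was 17.33 in L2, with the nearest low salt mouse at 17.08. Atp5d was 15.85 in N4, with the nearest normal salt mouse at 15.83, in a group whose values lay very close together.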

How the results depend on the processing

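No member gene passed the threshold under any alternative run other than leaving out the array of L3 and L4, where 2 did, Cox7a2l at -0.99 and Atp5a1. The 145 calls over all genes became 34 with the scanner's processed signal, 0 with no normalization between arrays, with Cy3 or Cy5 mice alone and with arrays averaged (unadjusted limma p under 0.05 in 782, 1863, 1265 and 1556 genes), 631 with no array block, 235 with the replicate block and 67 with the local trend subtracted. They became 87 without the array of L1 and L2, 1091 without that of L3 and L4 and 267 without that of N1 and N2. Leaving out 1 mouse gave 53 to 110 calls over all genes, 0 member genes, a members' median of -0.04 to -0.01 and an isoform contrast of -0.23 to 0.0049. The members' median was 0.0893 with the scanner's processed signal and 0.0448 without the array of L3 and L4. The 2 member probes called became 1 with the scanner's processed signal, normexp on all spots, the replicate block or without the array of N1 and N2, 0 with no normalization between arrays, Cy3 or Cy5 mice alone, arrays averaged, the local trend subtracted or without the array of L1 and L2, and 7 without that of L3 and L4, and leaving out 1 mouse gave 0 to 2. Why these values moved was not tested. The members' signs turned in 18 of 49 genes with the scanner's processed signal and in 10 with no normalization between arrays, and the isoform contrast turned to 0.04 and 0.02 there. Complete probes only, an alternative chosen after seeing the data, gave 46 members, 145 calls and 0 members called. With 2 arrays per diet, and each diet on arrays of its own, differences common to the arrays of a diet cannot be told apart from diet, and probes near background, such as that of Cox7b2, carry little signal.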
